A study of Mus musculus with 4 samples.

Results

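The 10 genes described here encode secreted or membrane antagonists of Wnt signalling: Sfrp1, Sfrp2, Frzb, Sfrp4, Wif1, Dkk1, Dkk2, Dkk3, Sostdc1 and Shisa2. They were taken by name from tables holding 22072 gene names, and each was represented by 1 RefSeq transcript. RNA came from molar mesenchyme that was laser-captured from frozen heads of mouse embryos at embryonic day 14, on a mixed strain background. There were 4 groups of 1 library each, namely Msx1+/- (control) and Msx1-/- (mutant) embryos, each with maxillary (upper) and mandibular (lower) molars. The controls are heterozygous and so also lack 1 Msx1 copy, the labels do not name the mutant allele, and the series' design text says that tissue of 3 control and mutant pairs was pooled before extraction. No group has a second library, so no difference between single libraries has a replicate check.

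Wnt proteins signal through Frizzled receptors and, in the beta-catenin branch, through the co-receptors Lrp5 and Lrp6. Sfrp proteins, Frzb (an Sfrp relative) and Wif1 bind Wnt ligands outside the cell, whereas Dkk1, Dkk2 and Sostdc1 bind the Lrp co-receptors. Beta-catenin signalling with the nuclear factor Lef1 is needed for tooth germs to pass the bud stage, and tooth development without Msx1 stops at about that stage.

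Levels are FPKM, that is fragments per kilobase of transcript relative to all mapped fragments, which compare genes per length. Where 4 values follow each other, they belong to control upper, control lower, then mutant upper and mutant lower molars. A gene was counted as higher or lower where log2(FPKM + 1) differed by at least 1 between 2 libraries, among 10536 genes whose mean over the libraries reached 1 FPKM. All 10 antagonists passed that filter. The median mutant minus control difference of the kept genes was -0.03 in upper molars and -0.39 in lower molars, so each lower-molar difference is also given after rescaling by median of ratios, which brought these medians to 0 and 0.01. Summed coverage over transcripts was between 264 megabases (mutant lower) and 410 megabases (control upper). Msx1 RNA was at 170, 184, 126 and 85.9 FPKM, and as the allele is not named and gene values do not show exons, this checks no label. All 12 dental mesenchyme markers examined were detected in each library.

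The antagonists split by direction. Sfrp2 was higher in mutant mesenchyme of both jaws, and Wif1 and Shisa2 were lower in both. Among all kept genes 0.399% were counted as higher and 1.59% as lower in both jaws, against 1 and 2 of the 10 antagonists. After rescaling, Sfrp1 and Dkk2 joined Sfrp2, which gave 3 higher and 2 lower antagonists, against 0.683% and 1.16% of all genes. The median antagonist difference averaged over the jaws was -0.19, against -0.22 for all kept genes. As bulk RNA was measured, fewer cells that express a gene and less RNA per cell cannot be told apart.

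**Figure D1:**
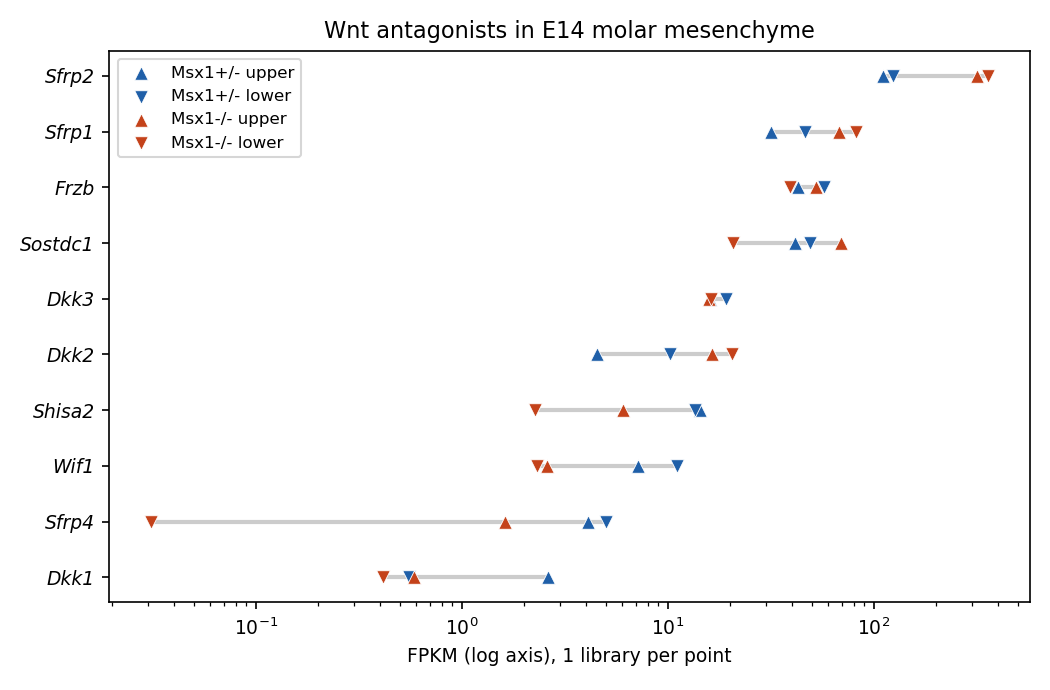
FPKM of the 10 Wnt antagonist genes on a log axis, with 1 point per library (blue for Msx1+/-, red for Msx1-/-, upward triangles for upper and downward triangles for lower molars) and a grey bar from the lowest to the highest library. Red points lie to the right of blue points for Sfrp1, Sfrp2 and Dkk2 and to the left for Sfrp4, Wif1 and Shisa2.

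The promoter windows of Sfrp2 and Dkk2, whose RNA was higher in mutant tissue, and of Wif1 and Shisa2, whose RNA was lower, are shown so that genes that moved together can be compared. Dkk1 is shown as the window with the most motif matches. Sequences are from RefSeq (build GRCm38.p6), which held windows for 6 of the 10 genes, and cover the 250 bases before the annotated start, 5′ to 3′ on the gene's strand. Capitals mark matches on either strand to a homeodomain core (TAATTG or CAATTA), a Tcf/Lef core (CTTTGA or TCAAAG) or a TATA box (TATAAA or TTTATA). The TATA box was added after the windows had been seen.
Sfrp2, chr3:83766071-83766320, plus strand: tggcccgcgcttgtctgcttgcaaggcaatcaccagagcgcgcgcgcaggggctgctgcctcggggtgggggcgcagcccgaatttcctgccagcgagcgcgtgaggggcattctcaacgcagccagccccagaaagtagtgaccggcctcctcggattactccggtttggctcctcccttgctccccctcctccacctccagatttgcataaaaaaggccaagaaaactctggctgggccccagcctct
Dkk2, chr3:132085042-132085291, plus strand: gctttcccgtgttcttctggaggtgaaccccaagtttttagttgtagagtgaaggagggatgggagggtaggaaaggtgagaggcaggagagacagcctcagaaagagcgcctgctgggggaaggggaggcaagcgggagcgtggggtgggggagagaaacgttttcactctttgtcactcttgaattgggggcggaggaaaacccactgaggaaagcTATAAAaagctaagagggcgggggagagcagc
Wif1, chr10:121033754-121034003, plus strand: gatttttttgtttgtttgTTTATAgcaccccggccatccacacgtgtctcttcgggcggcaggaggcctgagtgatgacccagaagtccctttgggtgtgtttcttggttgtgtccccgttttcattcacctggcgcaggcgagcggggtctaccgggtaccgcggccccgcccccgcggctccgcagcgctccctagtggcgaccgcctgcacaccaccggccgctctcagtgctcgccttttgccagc
Shisa2, chr14:59625031-59625280, plus strand: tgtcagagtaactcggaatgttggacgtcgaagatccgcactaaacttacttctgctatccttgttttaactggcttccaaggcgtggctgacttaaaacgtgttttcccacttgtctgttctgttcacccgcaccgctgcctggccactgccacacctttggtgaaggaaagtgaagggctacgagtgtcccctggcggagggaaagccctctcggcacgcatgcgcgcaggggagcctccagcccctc
Dkk1, chr19:30549497-30549746, minus strand: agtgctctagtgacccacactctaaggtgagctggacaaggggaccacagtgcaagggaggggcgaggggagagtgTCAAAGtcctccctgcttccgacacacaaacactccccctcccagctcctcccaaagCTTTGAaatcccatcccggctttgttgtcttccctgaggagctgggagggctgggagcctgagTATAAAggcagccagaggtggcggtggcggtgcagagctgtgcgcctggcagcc

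Both Sfrp2 and Shisa2 held none of these letters in this window. Dkk2 had a TATA box 32 bases before the start, and Dkk1 had one 54 bases before it. Wif1 held the TATA box letters on the opposite strand, 232 bases before the start. Dkk1 also held 2 Tcf/Lef cores, 174 and 117 bases before the start, and the Frzb window held 1, at 95 bases. A Tcf/Lef core was present in 13.8% of all 32851 windows, a TATA box in 12.4% and a homeodomain core in 7.17%. No homeodomain core lay in any of the 6 windows. CpG dinucleotides numbered 21 in Wif1, 16 each in Sfrp2 and Frzb, and 14 in Shisa2, against 7 in Dkk2, 6 in Dkk1 and a median of 6 over all windows. Neither motifs nor CpG number sorted Sfrp2 and Dkk2 from Wif1 and Shisa2. With 2 genes in each direction, and no window for Sfrp1 and Sfrp4, this cannot decide whether promoters of higher and lower genes differ. TATA box letters were in Dkk2 but not Sfrp2, and in Wif1 but not Shisa2. CpG numbers were 16 and 7 in Sfrp2 and Dkk2, against 21 and 14 in Wif1 and Shisa2.

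Among the antagonists that bind Wnt ligands, Sfrp2 (mm9 chromosome 3, 83570243 to 83578236) was the most abundant of the 10 genes in every library. Its level was 111, 124, 316 and 359 FPKM, so both mutant libraries lay above both control libraries and the jaws differed little. The mutant level was 2.84-fold that of control in upper and 2.90-fold in lower molars. On the log2(FPKM + 1) scale the differences were 1.5 and 1.53, and 1.54 and 2.02 after rescaling. Averaged over the jaws, this was the 28th largest increase of the 10536 genes. Mean read depth over the transcript was at least 101 in each library.

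Sfrp1 (mm9 chromosome 8, 24521974 to 24560104) was at 31.9, 46.6, 68.2 and 81.7 FPKM. The genotypes did not overlap, and within each genotype the lower molar had the higher value. Its differences were 1.07 in upper and 0.80 in lower molars, and 1.12 and 1.28 after rescaling, so it was counted in both jaws after rescaling but not on deposited values. A pseudocount of 5 gave 0.99 in upper molars.

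Frzb (mm9 chromosome 2, 80252127 to 80287553), second to Sfrp2 in both control libraries, was at 42.8, 57.4, 52.3 and 39.3 FPKM. Control and mutant values overlapped. It was not counted in either jaw, at 0.28 in upper and -0.54 in lower molars, and the lower-molar value was -0.06 after rescaling.

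Sfrp4 (mm9 chromosome 13, 19715044 to 19724692) was much less abundant, at 4.08, 4.99, 1.62 and 0.0310 FPKM. Its lower-molar difference was -2.54, or -2.38 rescaled, while in upper molars it missed the threshold at -0.96. The mutant lower value rests on 50.4 sequenced bases over the whole transcript, against 7120 in control lower molars, so no fold is given for it. With a pseudocount of 5 the lower-molar difference was -0.99, and with 0.1 the upper-molar difference was -1.28.

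Wif1 (mm9 chromosome 10, 120471060 to 120537698) encodes a Wnt-binding protein unrelated to the Sfrp family. It was at 7.21, 11.1, 2.59 and 2.31 FPKM, with both mutant values below both control values. Control exceeded mutant 2.78-fold in upper and 4.80-fold in lower molars. These are differences of -1.19 and -1.87, or -1.15 and -1.48 rescaled. With a pseudocount of 5 the upper-molar difference was -0.69 and was no longer counted.

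Of the antagonists that act on Lrp co-receptors, Dkk2 (mm9 chromosome 3, 131748256 to 131843268) was higher in the mutant. Its level was 4.55, 10.3, 16.5 and 20.6 FPKM, with no overlap between genotypes, and the control lower library was nearer to the mutant values than the control upper library was. The mutant level was 3.63-fold that of control in upper molars and 2.0-fold in lower molars. On the log2(FPKM + 1) scale this was 1.66 and 0.94, so Dkk2 was counted in the upper jaw alone, whereas the rescaled values of 1.69 and 1.4 were counted in both. Whether the jaws differ was not tested.

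Dkk1 (mm9 chromosome 19, 30620374 to 30623986) was the least abundant of the 10 genes in 3 libraries, at 2.63, 0.557, 0.588 and 0.416 FPKM. The control upper library stood above the other 3, which lay close together. It was counted as lower in mutant upper molars, at -1.19, and not in lower molars, where the difference was -0.14, or 0.02 rescaled. Between 859 and 6160 bases were sequenced over its transcript, and with a pseudocount of 5 the upper-molar difference was -0.45.

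Sostdc1 (mm9 chromosome 12, 37040756 to 37045039) encodes a protein that binds Bmps as well as Lrp co-receptors, and mice that lack it form extra teeth. Its level was 41.6, 49.0, 69.4 and 20.8 FPKM. The mutant libraries lay on either side of the controls, upper above and lower below. Mutant exceeded control by 0.73 in upper molars, short of the threshold, and differed from it by -1.20 in lower molars, where the rescaled value of -0.72 was not counted.

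The remaining genes act differently from the rest. Shisa2 (mm9 chromosome 14, 60244118 to 60250497) belongs to a family of membrane proteins known to hold Frizzled and Fgf receptors inside the cell. Its level was 14.4, 13.5, 6.06 and 2.26 FPKM, so the control libraries were close together and both mutant libraries were below them. Control exceeded mutant 2.38-fold in upper and 5.99-fold in lower molars, or by log2 differences of -1.13 and -2.16. The rescaled differences were -1.08 and -1.77. Rescaling to a common upper quartile left -0.99 in upper molars and a pseudocount of 5 left -0.81, so the upper-molar value sits at the threshold.

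Dkk3 (mm9 chromosome 7, 119259533 to 119302571), a divergent Dkk relative, varied least, at 16.1, 19.3, 15.8 and 16.2 FPKM. Its differences were -0.03 and -0.24, and the sign of both turned after rescaling, to 0.01 and 0.22.

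**Figure D2:**
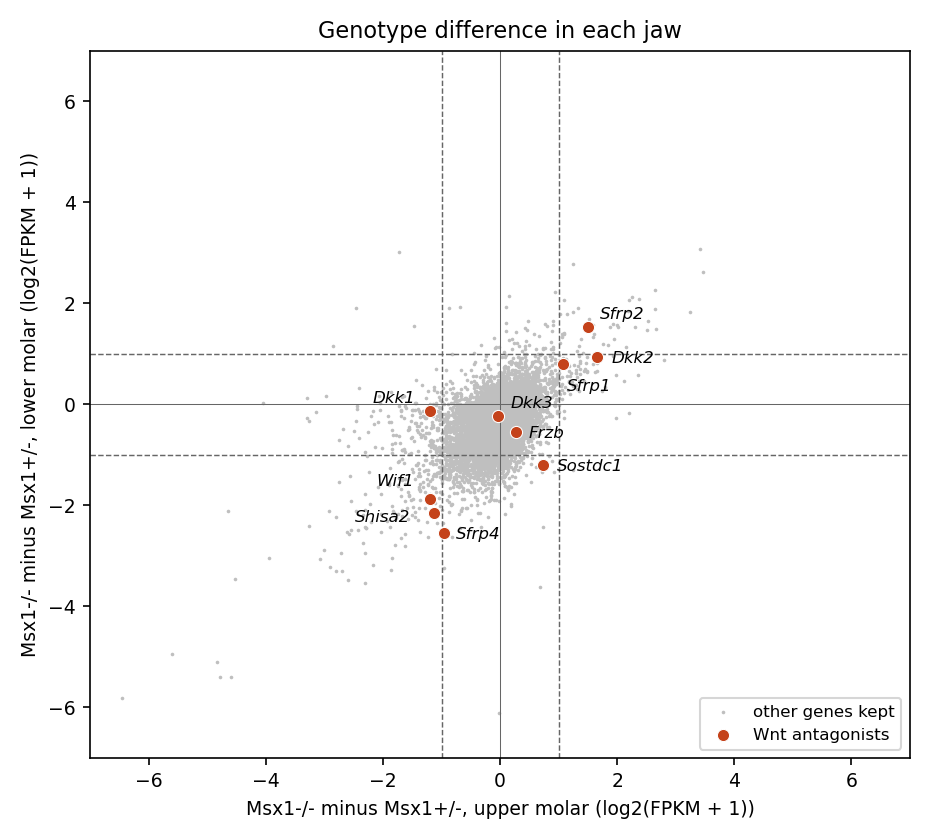
Mutant minus control difference of log2(FPKM + 1) in upper molars (horizontal axis) and lower molars (vertical axis) for all kept genes (grey) and the 10 antagonists (red), with dashed lines at the threshold of 1 in each direction. Sfrp2 lies beyond both thresholds on the higher side and Wif1 and Shisa2 beyond both on the lower side, with Dkk2 at 0.94 in lower molars just under the line.

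By jaw, 3 antagonists were counted as higher in mutant upper molars (Sfrp1, Sfrp2 and Dkk2) and 3 as lower (Wif1, Dkk1 and Shisa2). The shares of all kept genes were 1.07% and 3.26%. In lower molars 1 was counted as higher (Sfrp2) and 4 as lower (Sfrp4, Wif1, Sostdc1 and Shisa2), against 0.873% and 9.43% of all genes. Rescaling changed the lower-molar split to 3 higher and 3 lower, against 2.36% and 3.03%. Sfrp1 and Dkk2 came in and Sostdc1 dropped out. Upper-molar calls were the same 6 genes on deposited values and after rescaling by median of ratios.

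**Figure D3:**
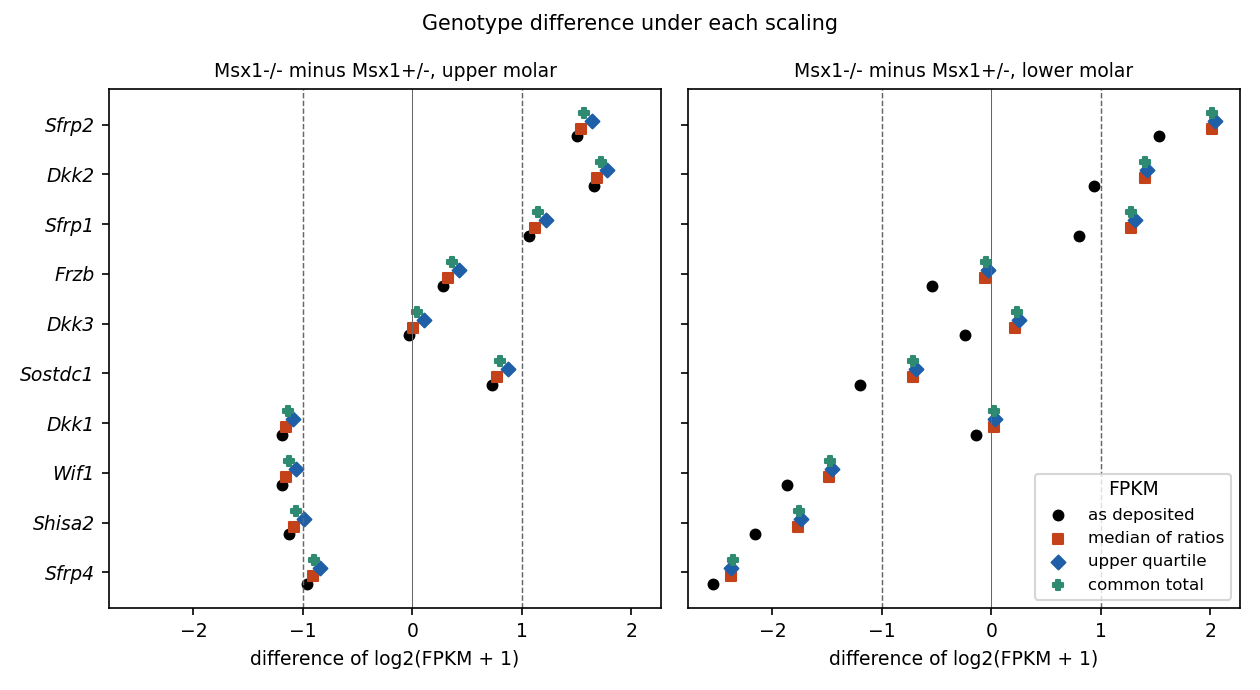
Mutant minus control difference of log2(FPKM + 1) for each antagonist in upper molars (left) and lower molars (right), from FPKM as deposited (black) and after 3 rescalings (colours), with dashed lines at the threshold of 1. In lower molars rescaling moves each value to the right, so that Sfrp1 and Dkk2 cross the upper threshold and Sostdc1 leaves the lower one.

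Without the threshold, Sfrp1, Sfrp2 and Dkk2 had both mutant values above both control values, and Sfrp4, Wif1 and Shisa2 had both below. Such separation was frequent among all kept genes, at 9.52% for mutant above control and 41.2% for mutant below control, and at 24.3% and 23.5% after rescaling, when the same 6 antagonists stayed separate. A limma model of genotype and jaw over the 4 libraries, fitted to deposited values, left 1 residual degree of freedom. On that scale the median difference of all kept genes, averaged over the jaws, was -0.22, which favours lower over higher calls. The model was not run on rescaled values, where the mean difference of Sfrp1 was 1.2. Its error was the disagreement between jaws typical of all genes of similar level. The prior degrees of freedom were estimated as infinite, so a gene's own disagreement between jaws had no weight. Sfrp2 and Sostdc1 thus had the same SE of 0.38, although their genotype differences differed between jaws by -0.03 and 1.92. The model gave Benjamini-Hochberg adjusted p below 0.05 for 5 antagonists, with 1.19% of all genes higher and 4.36% lower at that level. Sfrp2 had a difference of 1.51 ± 0.38 (SE, adjusted p = 0.00283) and Dkk2 one of 1.30 ± 0.34 (limma, adjusted p = 0.00465). On the lower side the limma adjusted p was 2.99e-05 for Wif1 (-1.53 ± 0.30), 2.66e-05 for Shisa2 (-1.64 ± 0.32) and 1.93e-09 for Sfrp4 (-1.75 ± 0.26). Sfrp1, at 0.94 ± 0.38, had a limma adjusted p of 0.152, and Dkk1 one of 0.0525. That model assumes that the jaws serve as replicates for each other, and for Sfrp4 it takes no account of the few bases behind the mutant lower value.

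The summed level of the 10 genes was 276.6, 336.6, 548.7 and 542.2 FPKM, which is 1.98-fold higher in mutant than control upper molars and 1.61-fold higher in lower molars. Sfrp2 made up 40.3% and 36.8% of this sum in control upper and lower molars and 57.5% and 66.1% in mutant. Without Sfrp2 the sum was 165.3, 212.7, 233.1 and 183.6 FPKM, with overlapping genotypes on these deposited values. The 5 Wnt-binding antagonists summed to 197.3, 243.9, 440.4 and 482.0 FPKM, but without Sfrp2 the other 4 summed to 85.95, 120.0, 124.7 and 123.3 FPKM, or 1.45-fold and 1.03-fold the control level in upper and lower molars. The 3 Lrp-binding genes summed to 48.8, 59.9, 86.6 and 41.8 FPKM, which overlapped between genotypes. Sums here and below are of deposited FPKM. Rescaling by median of ratios divides the 4 libraries by 1.06, 1.13, 1.03 and 0.807, which raises mutant lower sums against control. The overlap without Sfrp2 and the 1.03-fold value therefore hold for deposited values only. 

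**Figure D4:**
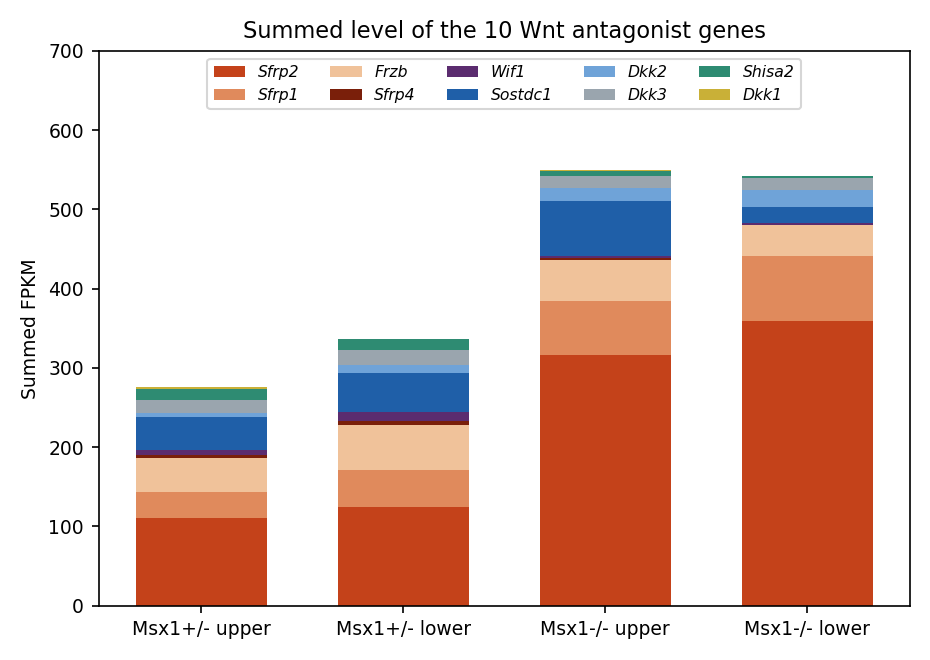
Summed FPKM of the 10 antagonists in each library, with 1 coloured segment per gene and no error bars because each bar is 1 library. Bars reach 276.6 and 336.6 in Msx1+/- and 548.7 and 542.2 in Msx1-/- molars, and the Sfrp2 segment at the base takes the largest share of each.

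The order of the genes by level was identical in the control jaws: Sfrp2, Frzb, Sostdc1, Sfrp1, Dkk3, Shisa2, Wif1, Dkk2, Sfrp4 and Dkk1. With 1 library per group it cannot be said which neighbours in this order differ beyond replicate spread. In both mutant libraries Dkk2 stood above Dkk3, Shisa2 and Wif1. Measured against all kept genes, Dkk2 went from percentile 43.9 and 71.1 in control upper and lower molars to 85.3 and 91.1 in mutant. Wif1 moved from 60.5 and 73.2 to 24.5 and 29.5, and Shisa2 from 80.3 and 78.4 to 57.0 and 28.6. Such percentiles do not depend on the scaling of a library.

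The jaws were then compared within each genotype, and these values use the same libraries as the genotype differences and are not independent of them. In controls Dkk1 was 4.72-fold higher in upper molars (difference 1.22) and Dkk2 was 2.26-fold higher in lower molars (difference -1.02). Of all kept genes 1.48% were counted as higher in upper and 0.218% as higher in lower control molars. The Dkk2 value was -0.93 after rescaling and no longer counted. In mutants Sfrp4, Sostdc1 and Shisa2 were counted as higher in upper molars, at 1.35, 1.69 and 1.12, against 3.22% of all genes, and none as lower, against 0.427%. After rescaling Sostdc1 and Sfrp4 were still counted, at 1.35 and 1.31, and Shisa2, at 0.86, was not. The change in Sostdc1 between jaws was 3.33-fold in mutants, whereas control lower was 1.18-fold above control upper. The signed genotype difference was more positive in upper than in lower molars by at least 1 for Sostdc1 (1.92), and also for Sfrp4 (1.58) and Shisa2 (1.03), both of which lay below control in each jaw and further below it in lower molars. It was more negative in upper molars for Dkk1 (-1.06). That was the case for 5.6% and 1.32% of all kept genes, where the median was 0.34. The Shisa2 value was 0.69 after rescaling by median of ratios and between 0.69 and 0.76 over the 3 rescalings, so it was no longer counted.

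Other parts of the pathway were read from lists of ligands, receptors, effectors and targets. None of their kept genes was higher in both mutant jaws on deposited values or after rescaling by median of ratios. Of 5 further antagonist genes that passed the filter, 0 were counted in both jaws, with medians of -0.31 (upper molars) and -0.70 (lower molars). They include Kremen1, a receptor through which Dkk proteins remove Lrp co-receptors from the surface, at 4.06, 5.04, 2.18 and 1.59 FPKM. Among 5 kept Wnt ligand genes, Wnt9a alone was lower in both jaws, at 2.82, 3.82, 0.896 and 0.946 FPKM, but not after rescaling by median of ratios. Of 17 kept receptor and R-spondin genes 1 was lower in both jaws, namely Lgr6, an R-spondin receptor, at 10.7, 3.83, 1.13 and 0.121 FPKM. The Lrp co-receptor genes that Dkk proteins bind stayed under the threshold, with Lrp6 at 8.84, 8.02, 13.8 and 7.31 FPKM and Lrp5 at 5.98, 5.54, 7.59 and 5.01 FPKM.

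Of 16 intracellular effector genes 1 was lower in both jaws, Lef1, at 117, 93.5, 23.1 and 11.3 FPKM. Of 12 kept target and feedback genes 3 were lower in both, namely Lef1 and Lgr6 again and Sp5, a direct target of beta-catenin signalling, at 3.79, 2.09, 0.131 and 0 FPKM. Axin2, a widely used readout of the same branch, was at 17.0, 13.6, 18.1 and 9.53 FPKM, under the threshold in both jaws. The median of the target list was -0.35 in upper and -0.54 in lower molars. The 19 Wnt ligand genes summed to 23.2, 26.2, 20.6 and 13.2 FPKM. Of this, Wnt5a alone gave 16.5, 17.1, 13.1 and 6.56 FPKM, and 14 of the 19 genes were under 1 FPKM in all libraries. Against that ligand sum, the antagonist sum was 11.9, 12.8, 26.6 and 41.1 times as large, and without Sfrp2 it was 7.11, 8.12, 11.3 and 13.9 times as large. The 14 further antagonist genes that had values, left out of this sum, went the other way and summed to 100, 128, 81.7 and 72.7 FPKM, with Igfbp4 at 74.8, 100, 60.1 and 56.8 FPKM among them. Such sums count RNA and not protein or its activity. They cover the captured mesenchyme only, so ligands made in other tissue of the tooth germ are left out of the ratios.

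**Figure D5:**
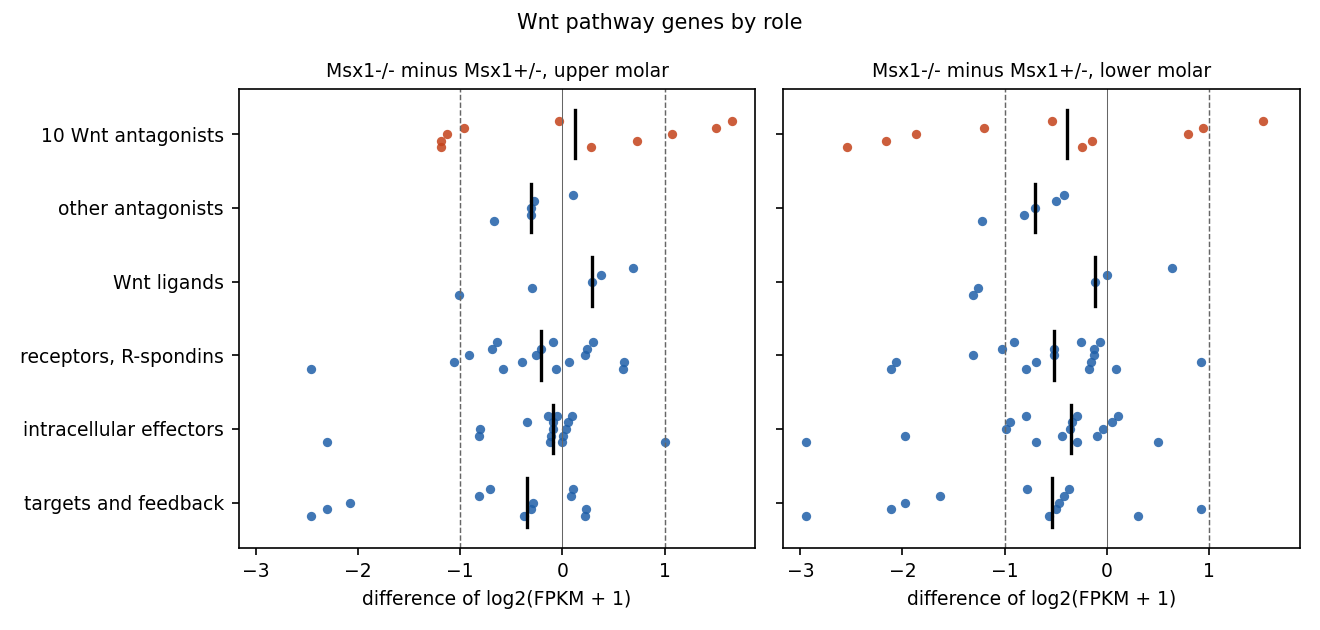
Mutant minus control difference of log2(FPKM + 1) for kept genes of each Wnt pathway list in upper (left) and lower molars (right), with 1 point per gene, a black bar at the list median and dashed lines at the threshold of 1. The antagonists (red) have 3 genes beyond the upper threshold in upper molars, and their medians are 0.13 and -0.39.

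The genes whose profile over the 4 libraries lay nearest to a member were found by Euclidean distance of centred log2(FPKM + 1), among 5331 genes whose mean reached 5 FPKM. Sfrp2 was most like Flrt2 (distance 0.116; 6.33, 6.80, 21.1 and 22.1 FPKM), followed by Agtr2 and Tox. Dkk2 was most like Anxa1 (distance 0.101; 5.63, 12.6, 19.9 and 22.8 FPKM), followed by the keratin gene Krt5 and by Lmcd1. Efnb2 was nearest to Wif1 (distance 0.126; 19.7, 27.1, 7.07 and 6.56 FPKM), with Olfm1 and Gab1 next. Shisa2 was nearest to Dusp6, a feedback phosphatase of Fgf signalling (distance 0.175; 24.9, 24.1, 11.3 and 3.88 FPKM), with Cthrc1 and the pericyte gene Rgs5 next. With 4 libraries, such likeness describes the profiles and nothing more.

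Markers of cell types also differed between these libraries. The 12 dental mesenchyme markers summed to 856, 774, 693 and 486 FPKM, with medians of -0.32 and -0.88. Of these, 3 (Dlx2, Prrx2 and Runx2) were lower in both jaws on deposited and on rescaled values, as were Wif1 and Shisa2. None was counted as higher in both jaws, but the markers did not all fall. Pax9 was at 45.7, 46.3, 68.1 and 66.1 FPKM, with differences of 0.57 and 0.51, and Barx1 had differences of -0.26 and 0.16. The 14 tooth epithelium markers summed to 29.2, 46.7, 51.0 and 71.8 FPKM. On deposited values the cartilage and macrophage sums shared this order of libraries, as did Sfrp1, Sfrp2 and Dkk2. The most abundant epithelium marker was Krt5, at 7.18, 17.0, 21.3 and 28.1 FPKM, and Krt15 was counted in both jaws. Fgf4, in contrast, was listed at 0 in all libraries, and Cdh1 did not exceed 0.142 and Shh 0.0190 FPKM. The 7 cartilage markers summed to 23.6, 24.4, 32.0 and 38.9 FPKM, with Col11a1 the most abundant (16.9 to 18.8 FPKM) and Hapln1 counted as higher in both jaws. Sums for the 8 osteoblast markers (Alpl leading) were 35.0, 35.9, 51.1 and 33.8 FPKM, and their counted genes went both ways, with Ibsp and Ifitm5 higher and Spp1 lower in both jaws. Sums for the 7 macrophage markers (C1qb leading) were 18.4, 24.0, 25.4 and 31.3 FPKM. Endothelial markers, led by Cdh5, lay between 37.4 and 46.6 FPKM. The pericyte and smooth muscle markers that had values (5 genes) summed to 19.0, 21.6, 24.8 and 9.43 FPKM, lowest in mutant lower molars. Frzb, Sfrp4, Wif1, Dkk1, Sostdc1 and Shisa2 were also lowest in that library, as was the median of all kept genes, at 3.94 FPKM. Rgs5, with the highest mean of the pericyte and smooth muscle markers, was at 11.8, 10.8, 5.96 and 2.07 FPKM. Acta2, in contrast, was at 2.53, 4.18, 15.2 and 3.57 FPKM and led in both mutant libraries. Glia and neuron markers (Gap43 leading) lay between 5.93 and 20.8 FPKM, with the highest value in mutant upper molars. Skeletal muscle markers (Chrna1 leading) summed to 4.4, 5.64, 3.39 and 3.90 FPKM and erythroid markers (Hbb-y leading) to 749, 923, 516 and 670 FPKM. In each, both mutant sums lay below both control sums on deposited values only. The part of these cells in the antagonist differences was not tested.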

How the data were processed

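RNA-seq libraries from 4 laser-captured molar mesenchyme pools were analysed, 1 per genotype and jaw, grouped by title. Per the labels' protocols, RNA came from a micro column kit, and NuGEN Ovation RNA-Seq v2 chemistry made the cDNA. Alignment used Bowtie 0.12.7 and TopHat 1.4.1 with build mm9, per the submitters' processing notes. Per the file headers, the authors' Cufflinks-style tables give FPKM, coverage signal (mean read depth) and transcript length in bases (other values of the table) for each of 28107 RefSeq transcripts. For Cufflinks no version is stated in the labels or headers, nor whether strand was kept.

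Deposited FPKM values were summed per gene name (22072 names). Genes with a failed estimate in any library (66) and genes whose longest transcript was under 200 bases (723) were left out, and 10536 genes averaging 1 FPKM or more were kept. Differences are of log2(FPKM + 1), which understates changes of weak genes. Whole reads were not recovered from FPKM, so no count interval is given. Sequenced bases are deposited coverage times transcript length. Start positions were raised by 1.

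Limma 3.58.1 (R 4.3.3), Python 3.11.15, pandas 2.3.3 and numpy 2.4.6 were used. All 10 members are named. Also named are up to 4 genes of each pathway list counted in both jaws, the 3 most similar profiles for Sfrp2, Dkk2, Wif1 and Shisa2, the most abundant gene of each cell type list, and Msx1. Further names (Kremen1, Lrp5, Lrp6, Axin2, Krt15, Hapln1, Igfbp4, Acta2, Dlx2, Prrx2, Runx2, Ibsp, Ifitm5, Spp1, Fgf4, Cdh1, Shh, Sfrp5 and Notum) were chosen after their values were seen. Pax9, Barx1 and Wnt5a were also chosen after their values were seen. The members and lists were chosen with earlier results of these data known. Alternatives were pseudocounts of 0.1 and 5, no filter, a minimum mean of 5 FPKM, 3 rescalings, the highest transcript per gene and the limma model. Differences relative to the median of all genes were added after seeing the data.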

Additional observations from a re-analysis of the deposited data

Results flagged for a closer look

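Under the same contrast, 4 of the 10 antagonists had differences of opposite sign in 2 groups, and none of these contrasts between groups was tested. With 1 library per group any change of sign is enough, and values far below the threshold of 1 are included. Between jaws the genotype difference changed sign in 2 antagonists and in 37.2% of all kept genes. Between genotypes the jaw difference did so in 4 antagonists and in 55.1% of all kept genes.

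Sostdc1 was above control in mutant upper molars (0.73) and below it in mutant lower molars (-1.20), so the genotype difference differed between jaws by 1.92, and the jaw difference between control and mutant by -1.92. The opposite signs remained after rescaling by median of ratios (0.77 and -0.72). Frzb was under the threshold in both jaws, at 0.28 and -0.54, a gap of 0.82 between jaws and of -0.82 between genotypes. After rescaling the lower-molar Frzb value was -0.06. The upper minus lower difference of Sfrp4 was -0.24 in controls and 1.35 in mutants, a gap of -1.58, and it rests on 50.4 sequenced bases in the mutant lower library. That of Wif1 was -0.56 in controls and 0.12 in mutants, a gap of -0.67, and both values were negative after rescaling (-0.47 and -0.14).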

How the results depend on the processing

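No called value of a single antagonist changed sign under any alternative run. Of 440 recomputed single-gene values 377 kept their sign and their side of the threshold. A further 29 fell below it, 9 rose past it and 25 uncalled values changed sign. Some runs could not change a single-gene value, so the 377 overstates stability. These were no filter, a minimum mean of 5 FPKM and, with 1 transcript per antagonist, the highest transcript per gene. Sfrp2 was counted in both jaws under all of the fold-based alternatives, with 1.46 to 1.64 in upper and 1.5 to 2.04 in lower molars. A pseudocount of 5, which shrinks differences of weak genes by construction, lowered the count of antagonists from 6 to 2 in upper molars, from 3 to 1 in both jaws, from 2 to 0 between control jaws, from 3 to 1 between mutant jaws and from 4 to 1 for the genotype difference between jaws. The 3 antagonists counted in both jaws became 5 when rescaled by median of ratios, rescaled to a common total, taken relative to the median of all genes, or tested with limma. The limma model, fitted to deposited and not to rescaled values, named Sfrp4 in place of Sfrp1. Between control jaws the 2 counted genes became 1 with each of the 3 rescalings, relative to the median, and under a minimum mean of 5 FPKM, where Dkk1 was filtered out. That filter also left out Sfrp4, which lowered the 4 genes of the genotype difference between jaws to 2. The labels give no replicate numbers. The limma model, with jaw as a term, is the fit here that pairs mutant with control by jaw, and its genotype difference is the average over the jaws.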

Other observations

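Sfrp5 and Notum, a Wnt-binding antagonist and an enzyme that inactivates Wnt proteins, fell under the filter on mean level and so entered no count. Both were chosen after their values were seen. Sfrp5 was at 0.983 and 1.06 FPKM in control upper and lower molars, at 0.0236 in mutant upper molars and listed at 0 in mutant lower molars. Notum was at 0.806 and 1.29 FPKM in controls, at 0.0347 in mutant upper molars and also listed at 0 in mutant lower molars. Their control levels are low, and no fold is given against a value of 0.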
